A study of Aptenodytes patagonicus with 3 samples.

Results

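J-domain co-chaperones were described in breast muscle of juvenile king penguins (Aptenodytes patagonicus) from the artificially acclimated (AA) group. A gene was taken as a member when its symbol in the annotation of the array began with DNAJA, DNAJB or DNAJC and a number, and when its probe set named no other gene. This gave 40 genes of 12913, read by 87 probe sets of 36813: 4 genes of class A on 11 probe sets, 10 of class B on 26 and 26 of class C on 50. Each gene was represented by its brightest probe set, judged on the mean of the 3 arrays.

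Each of the 3 AA birds had its own array. They were wild juveniles, caught at 10 to 11 months of age before they had first entered cold water, which moulted in captivity and were then immersed in tank water at 8 °C, 10 times for 5 hours, once every 2 days. The labels give bird 2 as a male and the other birds, 1 and 3, as females, and no genotype is given. Never-immersed and sea-acclimatized birds belong to the study and were not analysed here, so every value below compares birds within 1 condition. The male is 1 bird, so its sex and the bird itself cannot be told apart. The array was designed for chicken, so the signal of a probe set also depends on how well it matches the penguin sequence, and levels are compared between birds within a probe set and not between genes.

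J-domain proteins are the partners that direct HSP70 chaperones to their work. The J domain, with its invariant His-Pro-Asp motif, stimulates the ATPase of HSP70 and so locks it on a client protein, and nucleotide exchange factors then let the client go. Class A proteins carry a zinc-finger region beside the J domain and a glycine- and phenylalanine-rich stretch, class B proteins keep the J domain and that stretch, and class C holds all others, which often tie HSP70 to 1 place or task such as protein import, clathrin uncoating or splicing. In muscle, J-domain proteins and HSP70 take part in the upkeep of the sarcomere.

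All arrays had nearly the same distribution of values, with medians of 8.62 to 8.63 on the log2 scale. ACTA1, the skeletal muscle actin, sat at the maximum of 15.27 in every bird. Myoglobin, which stores oxygen in muscle, read 14.43 to 14.54. Single values of the members ranged from 7.03 to 12.54 and none reached the maximum. The number of arrays limits the precision of all values.

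By the median, the male lay below the females in classes A and B, farther in class A, and close to them in class C, whose median was 0.022 when bird 3 was left out. The median difference of the male from the mean of the females was -0.57 on the log2 scale in class A, -0.20 in class B and -0.04 in class C, beside 0.04 over all 12913 genes. It was -0.13 over the 40 members. The male was the lowest bird for 3 of 4 genes of class A, 6 of 10 of class B and 9 of 26 of class C, together 18 of 40 or 45%, where 32.5% of all genes had the male lowest. In 14 members, or 35%, the male was the highest, beside 41.5% of all genes. Bird 1 was lowest in 11 members and bird 3 in 11, beside 34.3% and 33.2% of all genes. They were highest in 11 and 15, beside 27.5% and 31.0%. Over the 87 member probe sets the male was lowest in 39, beside 33.0% of all probe sets that name 1 gene. The classes were compared by these counts and medians only. They also differed in brightness, with a median mean signal of 10.95 in class A, 10.2 in class B and 9.56 in class C. The classes were not matched for it. Of the 40 members, 16 lay in the brightest 25% of all genes. There 9 of these 16 members and 36.2% of all genes had the male lowest, and the median differences were -0.28 and 0.05. With the mean of all probe sets of a gene in place of the brightest, the medians were -0.08 over the family and -0.38 in class A. The median of class B was -0.13 when probe sets shared by several transcripts were left out. That setting drops DNAJB9, and its class B median is the value of DNAJB14 on a dim probe set.

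**Figure D1:**
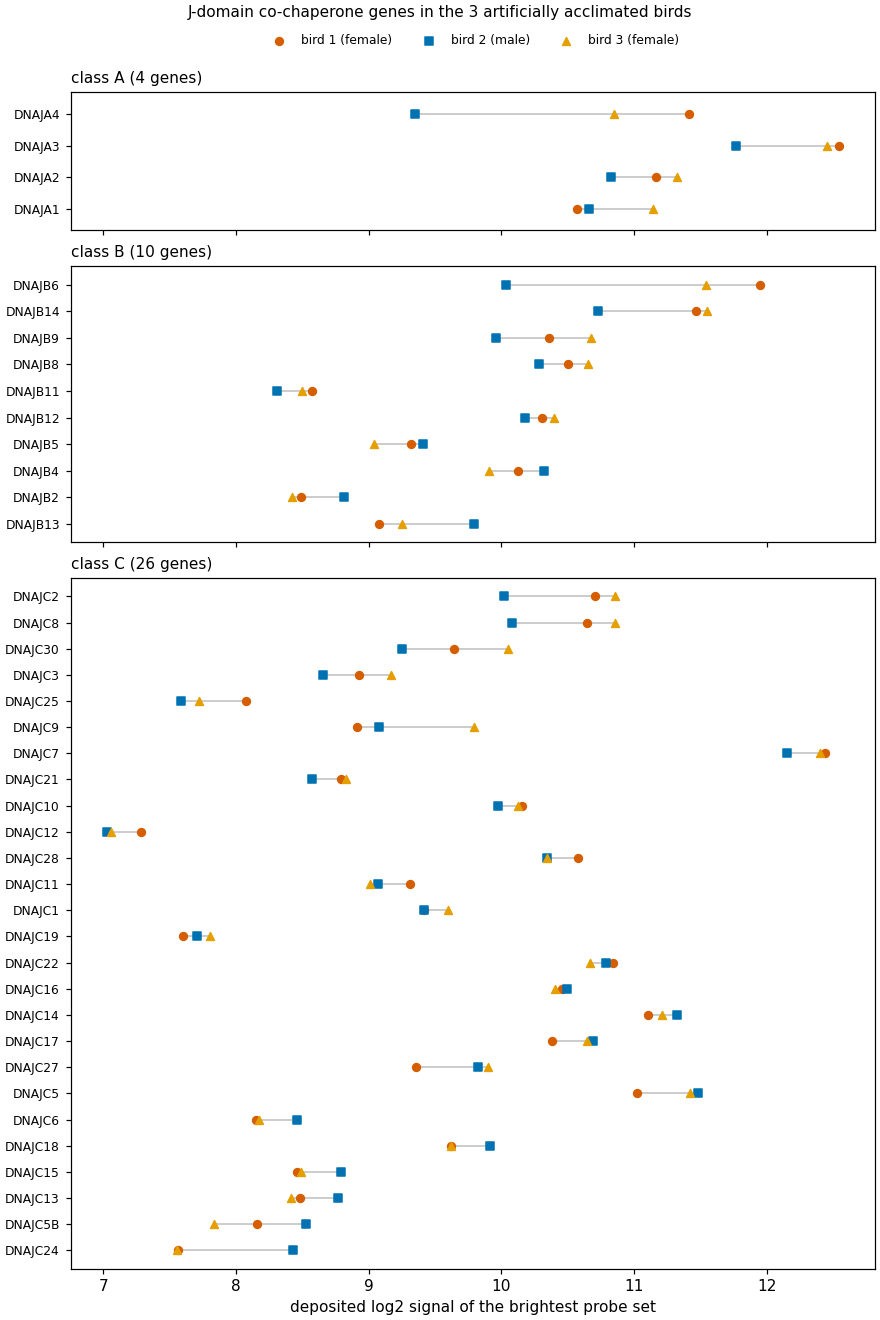
Deposited log2 signal of the brightest probe set of each J-domain gene (horizontal axis) in the female birds 1 and 3 (circles, triangles) and the male bird 2 (squares), with a grey line from the lowest to the highest bird. Genes are sorted within each class by the difference of the male from the females, and the male is the lowest bird for 18 of the 40 genes.

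Tested with limma over all 36813 probe sets, 0 of the 87 member probe sets differed between the male and the females at an adjusted p under 0.05, as did 0.0% of all probe sets. The smallest adjusted p among them was 0.165. At an unadjusted p under 0.05, 10 member probe sets passed, 6 of them lower and 4 higher in the male, where 9.78% of all probe sets passed, 6.32% lower and 3.46% higher. The test has 1 residual degree of freedom and takes the male to vary like the females. To this limma adds 7.35 prior degrees of freedom, estimated from all probe sets. Each SE is thus weighted mainly to the spread over all probe sets and not to that of the gene itself. No difference between the birds below is therefore called, and values are given as measured.

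Class A holds general co-chaperones of HSP70. The male lay below the female mean in all 4 genes, beside 45.0% of all genes, and the 4 share the same 3 arrays. DNAJA4, a cytosolic member of the class, read 11.42 and 10.85 in the females, with the male at 9.35. The male lay 1.50 below the nearer female, while the females were 0.57 apart. This difference of -1.79 (SE 0.29 and adjusted p = 0.186, limma) was the widest of the family, and 37 of the 12913 genes had a lower one. DNAJA3, which serves HSP70 in the mitochondrial matrix, read 12.54 and 12.46 in the females, with the male at 11.77, a difference of -0.73 (SE 0.23 and adjusted p = 0.338, limma). For DNAJA2, a cytosolic co-chaperone, the females gave 11.16 and 11.32 and the male 10.83. DNAJA1, also cytosolic, stood apart from the other class A genes, since the male at 10.66 lay between the females at 10.57 and 11.14. Its difference of -0.20 became 0.09 when bird 3 was left out. DNAJA4 and DNAJB6 were the only members whose range over the birds passed 1 log2 unit, a share of 5% beside 6.01% of all genes.

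In class B the genes fell on both sides, 6 with the male lowest and 4 with the male highest. DNAJB6, which keeps aggregation-prone proteins soluble and whose human mutations cause a limb-girdle muscular dystrophy, read 11.95 and 11.54 in the females, with the male at 10.03. Its difference was -1.71 (SE 0.26 and adjusted p = 0.165, limma), and 41 genes of 12913 had a lower one. DNAJB14, a J-domain protein of the endoplasmic reticulum (ER) membrane, read 11.47 and 11.55 in the females, with the male at 10.73. Its difference of -0.78 was -0.13 when probe sets shared by several transcripts, such as its brightest one, were left out. For DNAJB9, a co-chaperone of the ER lumen, the females gave 10.36 and 10.67 and the male 9.96. The male was also the lowest, by less, for DNAJB8, DNAJB11 and DNAJB12. DNAJB8, known for blocking protein aggregation, read 10.50 and 10.65 in the females, with the male at 10.28. DNAJB11, which binds unfolded clients in the ER lumen, read 8.58 and 8.50 against 8.31. DNAJB12, the close relative of DNAJB14 in the ER membrane, read 10.31 and 10.39 against 10.18.

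The other 4 genes of class B were highest in the male. DNAJB13, a protein of the sperm tail in mammals, read 9.08 and 9.25 in the females, with the male at 9.80, a difference of 0.63 (SE 0.23 and adjusted p = 0.425, limma). DNAJB2, which carries ubiquitin-binding motifs, read 8.49 and 8.42 against 8.81. The cytosolic DNAJB4 read 10.12 and 9.91 against 10.32, and DNAJB5 read 9.32 and 9.04 against 9.41. In DNAJB4 and DNAJB5 the male lay above the higher female by less than the females lay apart.

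**Figure D2:**
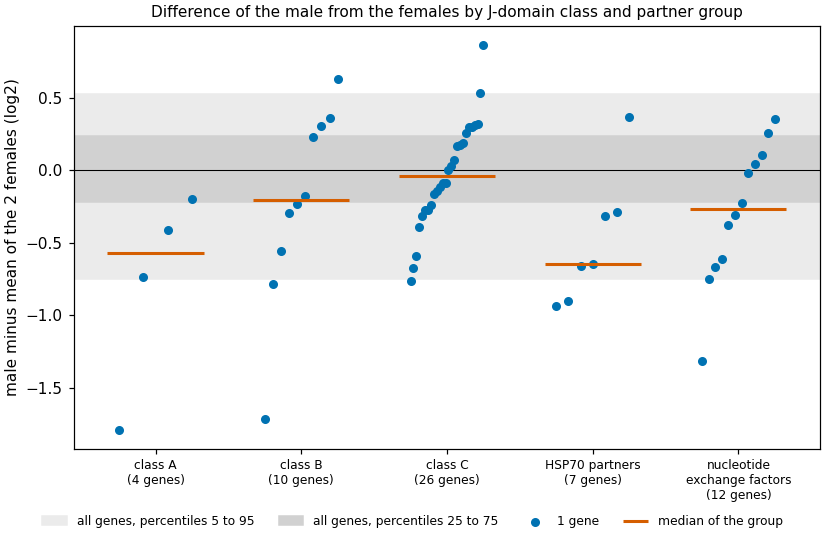
Difference of the male from the mean of the 2 females (vertical axis, log2) for each gene of classes A, B and C, the HSP70 partners and the nucleotide exchange factors. Points are genes, orange lines are the medians of -0.57, -0.20, -0.04, -0.65 and -0.27, and grey bands hold the percentiles 5 to 95 and 25 to 75 of all 12913 genes.

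In class C the male lay below the female mean in 13 of 26 genes and above it in 13, where 45.0% of all genes had it below. Its SD over the birds ran from 0.048 to 0.50, with a median of 0.17, beside 0.37 in class A, 0.21 in class B and 0.20 over all genes. The median SD of the whole family was 0.20, and 0.13 over the females alone, that is without bird 2. An SD of 2 birds is not comparable with that of 3, and no value over all genes without bird 2 is given. The male was also the lowest bird in 32.5% of all genes and the highest in 41.5%. DNAJC2, which sits on the ribosome and receives new chains, read 10.70 and 10.85 in the females, with the male at 10.02. DNAJC8, a component of the spliceosome, read 10.65 and 10.85 against 10.08. For DNAJC30, a mitochondrial member, the females gave 9.64 and 10.05 and the male 9.25. In these genes the difference was -0.76, -0.67 and -0.59, and both females lay above the male. With the mean of all probe sets the difference of DNAJC30 was -0.0083, and the male was the highest bird on 2 of its 4 probe sets.

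The largest difference upward in the family was that of DNAJC24, which acts in the synthesis of diphthamide, a modified residue of elongation factor 2. The females read 7.57 and 7.56 and the male 8.43, a difference of 0.86 (SE 0.23 and adjusted p = 0.266, limma), on a probe set whose mean lies in the dimmest 25% of all probe sets. DNAJC9, a histone chaperone, had its spread between the females, at 8.91 and 9.79 with the male at 9.08. The SD was small on the brightest probe set of DNAJC16 of the ER membrane, which read 10.45 and 10.40 in the females, with the male at 10.50, but its other probe set read 10.13 and 9.66 against 10.78, a difference of 0.88. DNAJC22 read 10.84 and 10.67 against 10.79. DNAJC10, a disulfide reductase of the ER lumen, read 10.15 and 10.12 against 9.98, and DNAJC19, of the motor that pulls proteins into mitochondria, read 7.60 and 7.81 against 7.71. The mean of this DNAJC19 probe set also lies in the dimmest 25% of all probe sets. A brighter probe set, left out because it names SEC24A as well as DNAJC19, read 10.75 and 10.72 in the females, with the male at 10.39. The 14 class C genes outside the rule for named genes had differences from -0.39 for DNAJC3 to 0.32 for DNAJC15.

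The male lay below both females by more than the females differed in 15 of 40 members, or 37.5%, where this held for 18.5% of all genes. It lay above both by more than the females differed in 9 members, or 22.5%, beside 23.3% of all genes. By at least 0.5 below both females, the male stood apart in 6 members, or 15%, beside 6.95% of all genes. These were DNAJA4, DNAJB6, DNAJB14, DNAJC2, DNAJA3 and DNAJC8, and all 6 lay in the brightest 25% of all genes. There the male stood at least 0.5 below both females in 6 of 16 members, beside 353 of all 3229 genes. In the dimmest 25% of all genes it did so in 100 of 3228, so this share depends on brightness. It also rests on the choice of the brightest probe set. No other probe set of the 6 genes had the male at least 0.5 below both females. The widest such gap was -0.38, for DNAJA3, and DNAJC2 has only 1 probe set. By at least 0.5 above both females the male stood apart in DNAJB13 and DNAJC24, or 5%, beside 3.2% of all genes.

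Grouped by where the proteins work, the 4 members of the vesicle and endosome group had the male highest on their brightest probe sets, where 41.5% of all genes had it highest. In the vesicle group DNAJC5, which maintains synaptic vesicle proteins, read 11.02 and 11.42 in the females, with the male at 11.48. Its second probe set had a difference of -0.15. Its relative DNAJC5B read 8.16 and 7.83 against 8.53, and 7.63 and 7.74 against 7.70 on its other probe set, where the male lay between the females. DNAJC6, or auxilin, which strips clathrin from vesicles, read 8.15 and 8.17 against 8.46, and DNAJC13 of the endosome read 8.48 and 8.41 against 8.77. The median difference of these 4 genes was 0.31. In the ER, 8 of 11 members lay below the female mean in the male, beside 45.0% of all genes, with a median of -0.17. Here DNAJC3, which binds unfolded clients in the lumen, read 8.93 and 9.17 in the females, with the male at 8.66, while its other probe set read 7.26 and 7.11 against 7.46. The 3 ER members above the female mean were DNAJC14, DNAJC16 and DNAJC18. In the cytosol and nucleus 10 of 15 measured members lay below, with a median of -0.27, and in the mitochondrion 4 of 6, with a median of -0.10, beside the same 45.0%.

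For the 28 genes with more than 1 probe set, the other probe sets shared the direction of the brightest in 26 of 47 cases. All probe sets of a gene shared 1 direction in 15 genes, 10 of them lower and 5 higher in the male. No share over all genes is given beside these counts, so they are not read as a result about the members. The widest differences, of DNAJA4 and DNAJB6, were not seen on every probe set. DNAJB6 gave 10.58 and 10.44 in the females, with the male at 10.52 on its second probe set, and 8.86 and 9.37 against 9.12 on the third, where the male lay between the females both times. DNAJA4 gave 9.90 and 9.62 against 9.38 on the probe set that the study chose for it, a difference of -0.38, and the male was the highest bird on its remaining 2 probe sets, with differences of 0.20 and 0.36. With the mean of all probe sets the difference was -0.40 for DNAJA4 and -0.56 for DNAJB6. In other genes the male kept its place on every probe set. It was lowest on both of DNAJB9, at 9.96 and 8.24, and on all 3 of DNAJA3, at differences of -0.73, -0.52 and -0.09. It was also lowest on both probe sets of DNAJA2, DNAJB8, DNAJC8 and DNAJC10, and highest on all probe sets of DNAJB5, DNAJC6, DNAJC16 and DNAJC17. DNAJB12 and DNAJB4 reversed, since all 3 other probe sets lay on the opposite side of the brightest. Across the 28 genes, whose points share the same 3 arrays, Pearson's r between the differences of the brightest and the second probe set was 0.37, and 0.47 without DNAJA4 and DNAJB6.

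**Figure D3:**
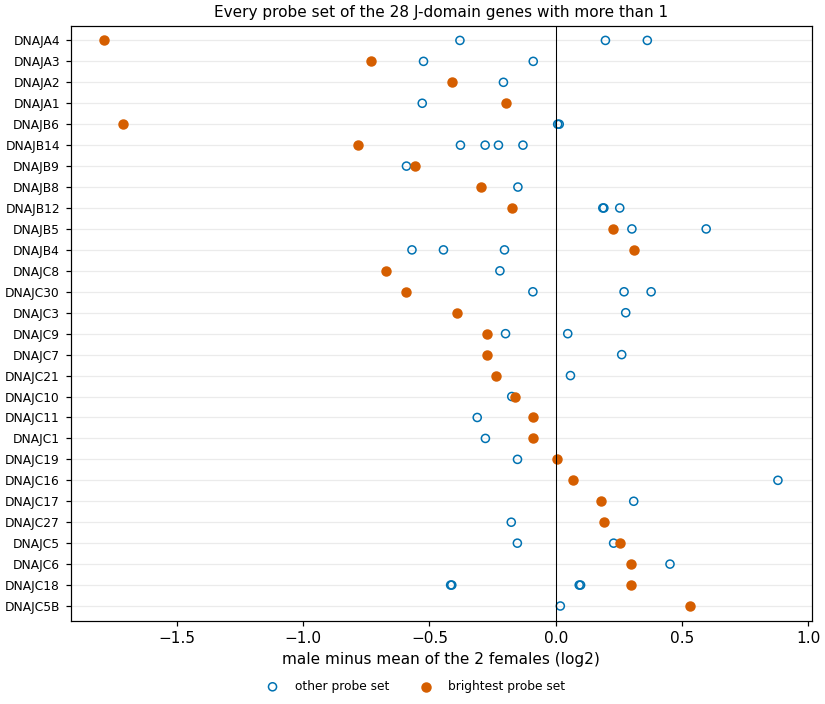
Difference of the male from the mean of the 2 females (horizontal axis, log2) on every probe set of the 28 J-domain genes with more than 1, grouped by class. Filled points are the brightest probe sets and open points the others; the filled points of DNAJA4 and DNAJB6 at -1.79 and -1.71 stand away from their open points.

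The HSP70 chaperones, which J-domain proteins act on, lay lower in the male in 6 of the 7 measured genes of 10 listed, with a median difference of -0.65. Over all genes 45.0% lay below the female mean, with a median of 0.04. No difference of the HSP70 genes is called. HSPA9, the HSP70 of mitochondria, read 11.74 and 11.75 in the females, with the male at 10.81, beside the lower value of its partner DNAJA3. HSPA5, the HSP70 of the ER lumen, read 11.17 and 11.005 against 10.18. HSPA8, the constitutive HSP70 of the cytosol, read 13.56 and 13.67 against 12.96, and HSPA2 read 13.88 and 13.97 against 13.27. HSPA14, an atypical relative that binds ribosomes, was the exception at 9.01 and 8.83 against 9.29, but on its other probe set the male was lowest, at 7.41 and 7.73 against 7.37. Differences of HSPA9 and HSPA5 were -0.93 and -0.90, each with a limma standard error of 0.23 and adjusted p-values of 0.241 and 0.258 from limma.

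The nucleotide exchange factors, which end the HSP70 cycle, had the male lowest in 6 of 12 measured genes, beside 32.5% of all genes. Their median difference was -0.27, beside 0.04 over all genes, and none of their differences is called. HSPA4L, of the HSP110 group, read 11.26 and 10.45 in the females, with the male at 9.54, and its other probe set read 10.29 and 9.41 against 8.33. HSPA4 of the same group read 12.41 and 12.36 against 11.64. BAG3, which works with HSPB8 and HSP70 in removing damaged sarcomere proteins, read 12.88 and 12.89 against 12.22. On their brightest probe sets GRPEL1 and GRPEL2, the exchange factors of HSPA9, differed from the female mean by -0.02 and 0.04. Other probe sets of GRPEL2 gave 0.15 and -0.60, and those of GRPEL1 gave -0.19 and 0.10. Of 5 listed proteins with a J or J-like domain that are named outside the DNAJ scheme, 4 were measured. SEC63, GAK, HSCB and PAM16 had differences of 0.11, -0.02, -0.43 and -0.26. Other probe sets gave -0.56 for SEC63, 0.06, -0.09 and 0.45 for GAK, and 0.02 for HSCB.

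**Figure D4:**
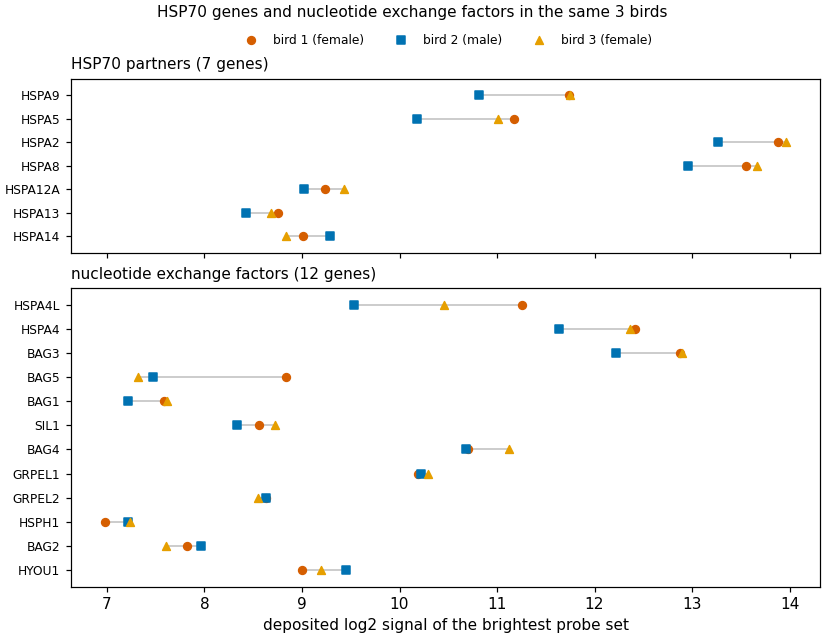
Deposited log2 signal of the brightest probe set (horizontal axis) of 7 HSP70 genes and 12 nucleotide exchange factors in the female birds 1 and 3 (circles, triangles) and the male bird 2 (squares), with a grey line from the lowest to the highest bird. The male is the lowest bird for 6 of the 7 and for 6 of the 12 genes.

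Markers of other cells differed between the birds as well. The summed linear signal of the 5 measured of 11 erythrocyte markers was 62331 and 51045 in the females, with the male at 40980, led by HBA1 and HBAD, while the median difference of the 5 genes was 0.01. Of 6 leukocyte markers, 5 were highest in the male on their brightest probe sets, beside 41.5% of all genes. Their sum was 4550 and 6131 in the females, with the male at 6153. Other probe sets went both ways. The male was lowest on at least 1 of those of CD44, LCP1, CD74 and PTPRC, and highest on at least 1 of those of CD44, PTPRC and CSF1R. Muscle markers summed to 118430 and 126640 against 127640, with 1 of 7 lowest in the male, beside 32.5% of all genes. In the fibroblast list the sums were 9934 and 5874 in the females against 6550 in the male. Sums of the 5 endothelium markers were 4249 and 3992 against 3368, and of the 4 adipocyte markers 2278 and 3383 against 2854. The endothelium sum follows its brightest gene, VWF, with a difference of -0.73, while 3 of the 5 genes lay above the female mean and the median was 0.01. Satellite cell markers summed to 2997 and 4410 against 2256, led by MYOD1 at 10.795 and 11.70 against 10.24. MYF5 and PAX7 differed by -0.19 and 0.06. Such sums are carried by the brightest genes of a list. The lowest value on each array was 6.46 to 6.47, so a value above 0 does not show that a marker was expressed. The part of these cells in the values of the J-domain genes was not tested. In a muscle biopsy, fewer cells of a type and less RNA per cell cannot be told apart.

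By symbol all 40 members were found in the RefSeq annotation of assembly bAptPat1.pri.cur of this species. It places DNAJA1, DNAJB5, DNAJC21 and DNAJC25 on chromosome Z, of which male birds carry a pair and females a single copy. Of these 4 genes 1, DNAJB5, was highest in the male and 3 lay below the female mean, with a median of -0.22. Of the 464 genes of chromosome Z, 256 were highest in the male and 142 lay below the female mean, with a median of 0.13. Other probe sets kept the direction for DNAJA1 and DNAJB5, while that of DNAJC21 gave 0.058. The mean of DNAJC25 lay in the dimmest 25% of all probe sets.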

How the data were processed

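Pectoralis RNA of 3 AA birds was hybridized to Affymetrix GeneChip Chicken Genome arrays, 1 array per bird. The authors summarised probes with MaxRS and quantile-normalized the log2 signal, which was deposited as 1 value per probe set and bird. How many arrays were normalized together could not be read from the sources. In the submitters' processing notes limma appears with no version. These log2 values entered all steps without further normalization. The platform's annotation named 1 gene for 26041 of 36813 probe sets, several for 170 and none for 10602. A probe set that names DNAJC19 together with SEC24A was left out.

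The male was compared with the females with limma 3.58.1 (lmFit and eBayes, R 4.3.3) on all probe sets, with Benjamini-Hochberg adjustment at 0.05. This step was also run on simulated data, with no result given here. Nothing about its rate of false or missed calls is drawn from that run. All else is counts, medians and SDs, from Python 3.11.15. Shares of members are set beside the same share of all genes.

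The members, the gene lists and the tests were chosen with earlier results of these data known. Values by bird are given for every gene of classes A and B, the class C genes with the 6 highest and the 4 lowest SDs, the 5 largest differences in each direction, and DNAJA4, DNAJB9 and DNAJC6. Any further gene was picked with its values in view. The alternatives were a repeat of quantile normalization, median centring, the mean of all probe sets of a gene, leaving out probe sets ending in _s_at or _x_at or the dimmest 25%, leaving out each bird, an intensity trend in limma and 1 probe set per gene. Leaving out the 2 members with the widest range was added after seeing the data.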

Additional observations from a re-analysis of the deposited data

How the results depend on the processing

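Under repeated quantile normalization, median centring and leaving out the dimmest 25% of probe sets, the medians over the family and over each class and the count of members lowest in the male kept their direction. With all birds the count ran from 15 to 21, on 35 to 40 genes. Leaving out 1 female, so that the male was set against 1 bird, gave 21 to 23. Against 1 bird the male can only be lower or higher, so 21 to 23 is not comparable with the counts from all birds. No share of all genes is given for this setting. Under each of 6 alternatives no member probe set was called in limma. Other probe sets were called without those ending in _s_at or _x_at, which are shared by several transcripts, and with an intensity trend. The median of class C turned to 0.018 without the probe sets ending in _s_at or _x_at, and leaving out 1 female gave -0.013 to 0.022. Leaving out each bird gave a median SD of 0.13 to 0.23, the lowest without the male, with no value over all genes beside it. Without DNAJA4 and DNAJB6 the median over the family was -0.10. With the mean of all probe sets, DNAJB12 turned to 0.11, DNAJB4 to -0.23 and DNAJC19 to -0.074. DNAJC9 turned to 0.048 without the probe sets ending in _s_at or _x_at. Leaving out 1 female gave -0.48 to 0.092 for DNAJA1, -0.10 to 0.11 for DNAJC19, -0.056 to 0.12 for DNAJC22 and -0.71 to 0.17 for DNAJC9. The cause of these turns was not tested. Of 199 values of the named genes under alternatives, 184 kept their direction and moved by less than the SD over the birds. This total includes settings that hardly change a single gene, such as repeated quantile normalization and median centring, where all 26 genes did so. Leaving out the dimmest 25% of probe sets or the 2 members with the widest range cannot change a gene that remains. With the mean of all probe sets 19 genes did so, 4 moved farther and 3 reversed. The 19 include DNAJB2, DNAJB11, DNAJB13, DNAJC2, DNAJC13, DNAJC22 and DNAJC24, which have 1 probe set each and could not change in this setting. No paired analysis was possible because all 3 birds belong to 1 group. The files give no measure of signal over background.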

Other observations

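Beyond the partners of the J-domain proteins, 12 of 16 measured genes from a list of heat shock factor targets had the male lowest, beside 32.5% of all genes, with a median difference of -0.51. The list shares HSPA8, HSPA2, BAG3, HSPH1 and HSPA4L with the partner groups above. HSP90AA1, the inducible cytosolic HSP90, read 12.45 and 12.48 in the females, with the male at 10.80, with a limma difference of -1.66. AHSA1, which activates the ATPase of HSP90, read 11.12 and 11.28 against 10.39, and FKBP4, a co-chaperone of steroid receptors, read 10.30 and 10.34 against 9.61. The other probe sets of AHSA1 and FKBP4 gave differences of 0.18 and 0.0065, and that of HSP90AA1 gave -1.87. The small heat shock protein genes HSPB1 and CRYAB differed by -0.05 and 0.10. No difference of the 16 genes is called.

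Of 15 measured genes of the unfolded protein response, 8 had the male lowest, beside 32.5% of all genes, with a median of -0.32. PDIA3, a disulfide isomerase of the ER, read 10.32 and 10.47 in the females, with the male at 9.52. EDEM1, which routes misfolded glycoproteins to degradation, read 10.17 and 9.95 against 9.31. The other probe set of EDEM1 went the other way, with a difference of 0.44, while those of PDIA3 had -0.27 and -0.13. XBP1, a transcription factor of this response, read 11.09 and 11.21 against 10.46. HSP90B1 and CALR, chaperones of the same compartment, differed by -0.01 and 0.02. These lists were described by counts and medians, and no difference of the 15 genes is called.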
